A study of Mus musculus with 90 samples.

Results

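The lysosomal genes described here are 36 enzymes and membrane proteins of the lysosome: cathepsins and other peptidases, glycosidases, sulfatases, lipid-handling proteins and proteins of the lysosomal membrane. They were chosen by name, and all 36 have at least 1 probe among the 55 member probes of the array. Of these genes, 33 had enough values to be tested in every comparison, among 11600 features tested (9760 genes and 1840 probes without a gene name). Ctsz, Sgsh and Lipa, which encode a cysteine carboxypeptidase, a heparan sulfate sulfatase and the acid lipase, lacked values in too many replicates and are given no value.

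RAW 264.7 cells, an established mouse macrophage line, were treated for 1, 2 or 4 h with lipopolysaccharide (LPS, a bacterial cell wall component) at 100 ng/ml, interferon gamma (IFG) at 5 nM, 2-methyl-thio-ATP (2MA, an ATP analogue) at 500 µM, LPS+IFG or LPS+2MA. RNA of each condition was hybridized together with RNA of untreated cells cultured in media for the same time on 2-colour arrays, in 3 numbered sets with both dye orientations, so that each of the 15 conditions has 6 arrays and 3 replicates. The labels list lipid binding protein at 100 pM with LPS alone and not with the combinations, so a difference between a combination and LPS cannot be told apart from a difference in this protein. The labels do not say whether sets were separate cultures, so p-values reflect the spread of these samples alone, which may be technical, nor whether treatments shared untreated RNA.

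All values are log2 ratios of treated over untreated RNA: 1 is a 2-fold rise and -1 a 2-fold fall. They are means ± SD over 3 replicates, a replicate averaging both dye orientations in 1 set. A gene is called where limma's test, with Benjamini-Hochberg adjustment over all 11600 features of a comparison, gave an adjusted p under 0.05. The direction of the deposited ratio is not labelled and was taken as likely: at 4 h all 5 tested genes of a list known to rise with LPS, and all 4 of one for interferon gamma, then stood above 0. A ratio holds no level, so the macrophage identity could not be checked by marker levels. Of 5 tested macrophage markers, 3 rose and 1 fell at 4 h of LPS (Fcgr1 1.90 ± 0.23, Csf1r -0.94 ± 0.23), and of 11 markers of T cells, B cells, fibroblasts and red cells 1 was called there, at 0.31.

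Lysosomes are acidic organelles in which macrophages break down ingested particles, worn-out organelles and lipids. Their enzymes are made as precursors, sorted by the mannose 6-phosphate receptor and activated at low pH, and inherited loss of single members causes storage diseases. Many of these genes carry a palindromic E-box, the core of the CLEAR element bound by TFEB and related factors, in their promoters. In macrophages some cathepsins also process antigens and the invariant chain of MHC class II.

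Promoter stretches from RefSeq (GRCm38.p6) are shown first because the calls are set against the E-box further on. Of the 36 genes, 31 have a promoter of 250 bases before to 50 bases after the start in that table, 34 promoters in all, and Ctsb, Ctse, Ctsh, Npc1 and Asah1 were not matched. Each stretch below is 100 bases, read 5′ to 3′ on the gene's strand, with the motif in capitals. The first 4 carry the E-box CACGTG, and the last a match to the interferon element, GAAA, any 2 bases and GAAA again.
Mcoln1 (chr8:3500419-3500518, + strand): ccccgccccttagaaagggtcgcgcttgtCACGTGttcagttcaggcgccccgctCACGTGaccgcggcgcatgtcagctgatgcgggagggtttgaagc
Lamp1 (chr8:13159061-13159160, + strand): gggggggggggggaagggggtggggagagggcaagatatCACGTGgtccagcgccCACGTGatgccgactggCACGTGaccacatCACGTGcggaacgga
Arsa (chr15:89477425-89477524, - strand): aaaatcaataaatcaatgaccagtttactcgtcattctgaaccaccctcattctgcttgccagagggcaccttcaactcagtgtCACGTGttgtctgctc
Gla (chrX:134601156-134601255, - strand): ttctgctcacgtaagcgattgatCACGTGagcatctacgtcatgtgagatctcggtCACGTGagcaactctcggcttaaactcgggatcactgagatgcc
Ctss (chr3:95526686-95526785, + strand): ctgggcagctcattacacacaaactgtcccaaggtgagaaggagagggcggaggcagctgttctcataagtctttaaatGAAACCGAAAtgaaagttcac

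The E-box occurred in 13 of the 34 member promoters (38.2%) and in 7.15% of all 32851 promoters in the table. The stretches of Mcoln1, Arsa, Lamp1 and Ctss end at the base before the start, and that of Gla begins 250 bases before it. The stretch of Lamp1 holds 4 copies and those of Mcoln1 and Gla 2 each. The interferon element matched 5.88% of member promoters (Ctss and Lamp1) and 3.44% of all, and the kB consensus 11.8% and 4.51%. Both strands were searched, and matches of different motifs were counted separately where they overlapped. A match describes the letters of the window and not a bound site.

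Across the 15 conditions the lysosomal genes did not move as a block. Their median log2 ratio lay between -0.11 and 0.04 in every condition, beside medians of all features between -0.01 and 0.01. Of the 33 tested, 9 were called higher and never lower (Ctsc, Ctse, Ctss, Gla, Ids, Lamp2, Npc2, Psap and Scarb2), 9 lower and never higher (Arsa, Asah1, Idua, Lgmn, Mcoln1, Naglu, Neu1, Npc1 and Smpd1), and Fuca1 was called in both directions. The other 14 were called in no condition: the cathepsins Ctsa, Ctsb, Ctsd, Ctsf, Ctsh and Ctsl, the peptidase Tpp1, the glycosidases Gaa, Glb1, Gusb, Hexa and Man2b1, the sulfatase Arsb and the membrane protein Lamp1. Of the 210 means of those 14 genes, 200 lay within 0.25 of 0, from -0.31 (Ctsa with 2MA at 1 h) to 0.46 (Ctsl with LPS+2MA at 4 h). With the set as a block, 5 of the 14 were called in at least 1 condition: Ctsl (LPS and LPS+2MA at 4 h), Glb1 (4 h of each treatment that held LPS), Man2b1 (2MA at 2 h and LPS+IFG at 4 h), Ctsb (LPS+IFG at 4 h) and Ctsf (LPS at 2 h). Gla was then called lower in 6 conditions and higher at 4 h of LPS (0.42, limma adjusted p = 0.0124) and of LPS+IFG. The block fit called 1.99% (IFG at 1 h) to 42.3% (LPS+IFG at 4 h) of all features, beside 1.07% and 33.4% without it. It takes the spread between sets of a time out of the error, so its p-values do not hold that spread.

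**Figure D1:**
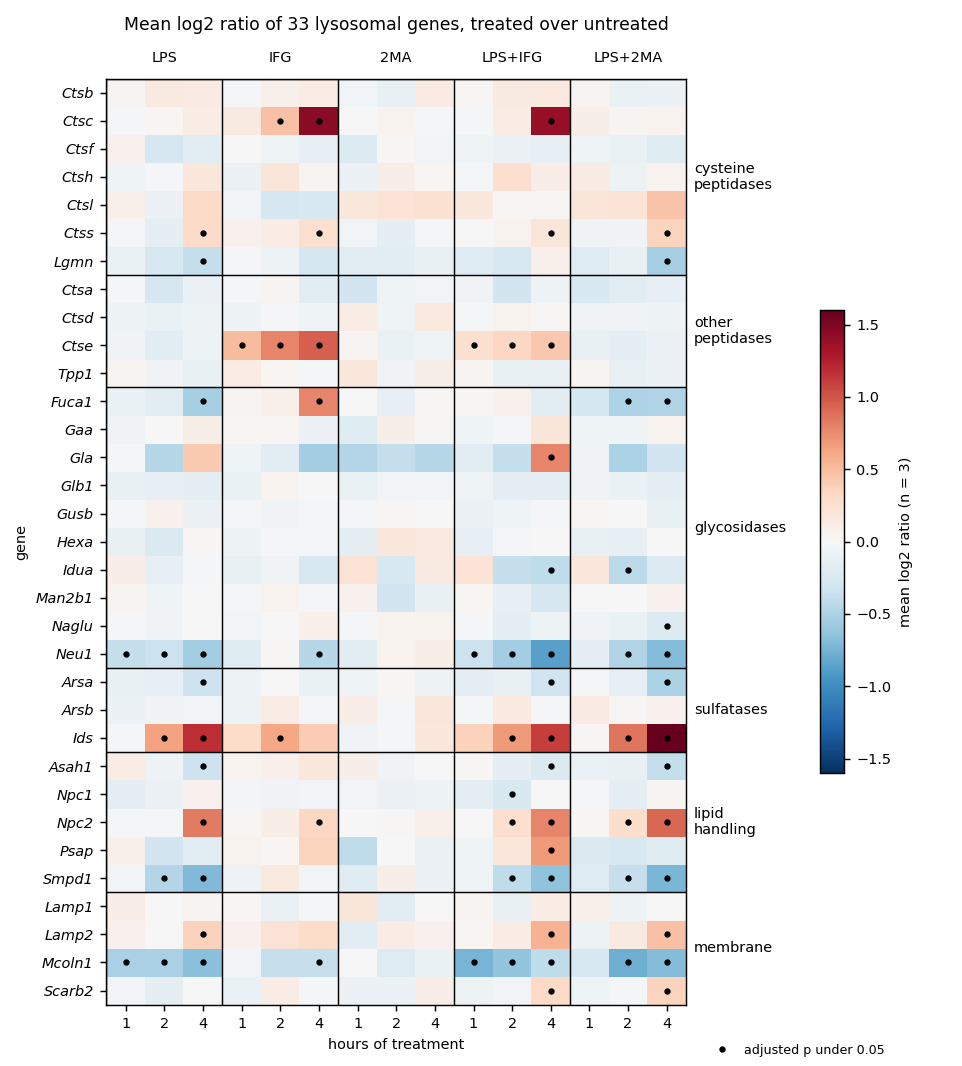
Mean log2 ratios (colour, n = 3 replicates) of the 33 tested lysosomal genes, in rows by role, in the 15 conditions, in columns by treatment and hours; dots mark an adjusted p under 0.05. Dots gather in a few rows such as Neu1 and Mcoln1 (9 conditions each), the 2MA columns hold none, and 14 rows hold none.

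LPS called 2 of 33 members at 1 h, beside 5.40% of all features, 4 at 2 h beside 15.4%, and 11 at 4 h (33.3%) beside 28.0%. At 4 h 4 members rose, beside 12.5% of features, and 7 fell, beside 15.5%. Ids alone passed both the test and a 2-fold change, which 4.81% of features did. The members' share lay near the background at each time, so no count is a result about the lysosomal genes as a class. The 1 h count was 0 without replicate 1 and 1 without replicate 2, and the 2 h count was 2 without replicate 2. With the set as a block the 2 h count was 8, beside 25.4% of features in that fit.

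IFG called 1 member at 1 h, beside 1.07% of all features, 3 at 2 h beside 3.28%, and 7 at 4 h (21.2%) beside 11.8%. At 4 h 5 members rose, beside 6.11% of features, and 2 fell, beside 5.68%, with Ctsc the only one also changed 2-fold (1.86% of features). The 2 h count was 1 without replicate 2, and the 4 h count was 5 to 6 when any 1 replicate was left out. With the set as a block the 4 h count was 13, beside 20.9% of features in that fit.

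2MA called no member by limma's test at 1, 2 or 4 h, beside 1.27%, 1.23% and 1.84% of features; 7, 3 and 0 members had an unadjusted p under 0.05. With the set as a block 1 member was called at each time, beside 5.28%, 4.04% and 6.29% of features in that fit. It was Gla at 1 and 4 h and Man2b1 at 2 h. Without replicate 2 of 1 h the count there was 1. The member means with 2MA ran from -0.47 to 0.24.

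LPS+IFG called 3 members at 1 h beside 7.26% of features, 7 at 2 h beside 20.3%, and 15 at 4 h (45.5%) beside 33.4%. At 4 h 9 rose, beside 14.9%, and 6 fell, beside 18.5%, and Ctsc and Ids also changed 2-fold (6.71% of features). LPS+2MA called no member at 1 h by limma's test beside 5.36% of features, and 4 had an unadjusted p under 0.05. With the block 1 was called there, Fuca1, beside 9.5% of features in that fit. Without the block LPS+2MA called 7 at 2 h beside 17.2%, and 13 at 4 h (39.4%) beside 32.8%. At 4 h 5 rose, beside 14.7%, 8 fell, beside 18.1%, and Ids also changed 2-fold (6.59% of features). Without replicate 1 of LPS+IFG at 1 h its count was 1, and without replicate 2 of LPS+2MA at 2 h its count was 4. Leaving out any 1 replicate of 4 h gave 11 to 12 members for LPS+IFG and 11 to 13 for LPS+2MA. The share of all features was not counted for these, and no test of the members' shares against the background was run.

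**Figure D2:**
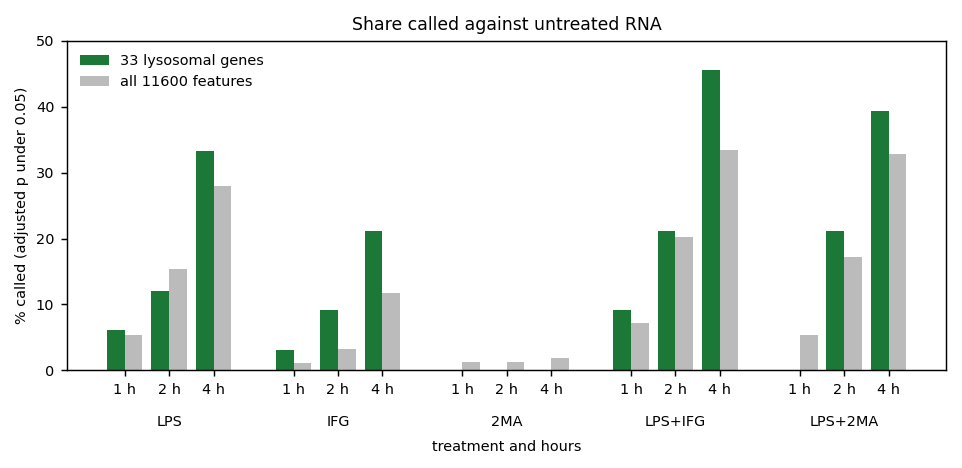
Share of the 33 lysosomal genes (green) and of all 11600 features (grey) called at adjusted p under 0.05 against untreated RNA, by treatment and hours. At 4 h of LPS the shares are 33.3% and 28.0%, at 4 h of IFG 21.2% and 11.8%, and with 2MA no lysosomal gene is called.

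Among the cysteine peptidases, Ctsc rose furthest. It encodes cathepsin C, the dipeptidyl peptidase that activates serine proteases of immune cells. With IFG its 3 replicates were 0.11, 0.12 and 0.19 at 1 h, 0.50, 0.75 and 0.14 at 2 h, and 1.29, 1.66 and 1.39 at 4 h. At 4 h every replicate stood above every replicate of the earlier times. The means were 0.46 ± 0.30 at 2 h (limma adjusted p = 0.000471) and 1.45 ± 0.19 at 4 h (adjusted p = 1.44e-15), the latter a 2.73-fold rise. The 2 h call was lost without replicate 2 (0.32, adjusted p = 0.121).

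With LPS+IFG the 4 h replicates of Ctsc were 1.40, 1.18 and 1.59, with a mean of 1.39 ± 0.21 (adjusted p = 9.20e-16). With LPS alone they were -0.02, 0.11 and 0.25, with a mean of 0.11 ± 0.13 that was not called (adjusted p = 0.415). The groups did not overlap. At 2 h of LPS+IFG Ctsc stood at 0.12 ± 0.09 (adjusted p = 0.414), against the 0.46 of IFG alone. Both Ctsc probes were called in the same 3 conditions, and they differed by at most 0.14. With 2MA and LPS+2MA its means lay between -0.02 and 0.09.

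Ctss, the cathepsin that trims the invariant chain, rose by less. At 4 h its replicates were 0.44, 0.28 and 0.21 with LPS (mean 0.31 ± 0.12, adjusted p = 0.000377) and 0.23, 0.32 and 0.22 with IFG (mean 0.26 ± 0.06, adjusted p = 0.00611). The call with IFG was lost without replicate 2 (0.23, adjusted p = 0.0835), with treated RNA in Cy5 alone (0.11, adjusted p = 0.404) and from either probe alone (adjusted p = 0.111 and 0.247). In Cy5 alone the LPS value was 0.21 (adjusted p = 0.0536). LPS+2MA gave 0.36 ± 0.15 and LPS+IFG 0.19 ± 0.09. The LPS+IFG mean lay below those of LPS and IFG alone, but neither difference was called (-0.12, limma adjusted p = 0.873, and -0.07, limma adjusted p = 0.826). Without replicate 1 the LPS+IFG value was 0.14 (adjusted p = 0.254) and without replicate 3 0.21 (adjusted p = 0.0594). The LPS+IFG call was also lost in Cy5 alone (0.10, adjusted p = 0.382) and in Cy3 alone (0.27, adjusted p = 0.051). Scaling the arrays to equal spread ended it too (0.15, adjusted p = 0.11), as did either probe alone (adjusted p = 0.357 and 0.166). From the second probe alone LPS was not called (0.28, adjusted p = 0.0827).

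Lgmn, encoding legumain, which cleaves after asparagine and activates other cathepsins, fell with LPS at 4 h. Its replicates were -0.36, -0.30 and -0.49 (mean -0.38 ± 0.10, adjusted p = 0.00196), and with LPS+2MA -0.65, -0.36 and -0.58 (mean -0.53 ± 0.15, adjusted p = 2.86e-05). All 6 lay below 0. From the first probe alone neither was called (adjusted p = 0.0924 and 0.0631). With LPS+IFG the replicates were 0.38, 0.12 and -0.27, spread to both sides of 0 and not called (adjusted p = 0.638). The other tested cysteine cathepsins, Ctsb, Ctsf, Ctsh and Ctsl, were called nowhere without the block.

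Of the aspartic and serine peptidases only Ctse was called. It encodes cathepsin E, an aspartic protease of the endosomal system in immune cells. With IFG its replicates were 0.54, 0.32 and 0.65 at 1 h, 0.75, 0.76 and 0.85 at 2 h, and 0.94, 0.79 and 1.12 at 4 h. Every one of the 9 was above 0, and it was the only member called with IFG at 1 h. The means were 0.51 ± 0.17 (adjusted p = 2.00e-05), 0.78 ± 0.05 (adjusted p = 5.36e-10) and 0.95 ± 0.17 (adjusted p = 2.35e-12).

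With LPS+IFG the rise of Ctse was smaller, at 0.26 ± 0.14, 0.34 ± 0.16 and 0.43 ± 0.13 over the 3 times. The call at 1 h was lost without replicate 1 (0.29, adjusted p = 0.0756) or replicate 3 (0.18, adjusted p = 0.337). Cy3 alone (0.25, adjusted p = 0.132), scaling (0.27, adjusted p = 0.126) and the second probe alone (0.16, adjusted p = 0.501) ended it too. With LPS alone the means were -0.05, -0.18 and -0.09, none called. The other 3 tested, Ctsa (protective protein), Ctsd (the main aspartic cathepsin) and Tpp1 (tripeptidyl peptidase), stayed between -0.31 and 0.17.

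Fuca1 was the glycosidase, and the member, called in opposite directions. It encodes alpha-L-fucosidase, which removes fucose from glycoproteins and glycolipids. At 4 h its replicates were 0.70, 1.01 and 0.64 with IFG and -0.44, -0.37 and -0.77 with LPS. The groups lay on opposite sides of 0. The means were 0.78 ± 0.20 (adjusted p = 1.82e-07) and -0.53 ± 0.21 (adjusted p = 6.48e-05). With LPS+IFG the replicates were -0.29, -0.25 and 0.03 (mean -0.17 ± 0.18, adjusted p = 0.224).

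LPS+2MA gave Fuca1 -0.50 ± 0.08 at 2 h and -0.48 ± 0.12 at 4 h, both called. Its probes had the same signs at 4 h of IFG and LPS but different sizes: 0.23 and 1.34 with IFG, and -0.31 and -0.74 with LPS. The 4 h falls were not called on the arrays with treated RNA in Cy3 alone, at -0.31 with LPS (adjusted p = 0.128) and -0.32 with LPS+2MA (adjusted p = 0.110), and neither was the 2 h fall with LPS+2MA, at -0.25 (adjusted p = 0.293). From the first probe alone the LPS+2MA values were -0.12 at 2 h (adjusted p = 0.366) and -0.14 at 4 h (adjusted p = 0.160).

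Neu1, encoding the sialidase that removes terminal sialic acid, fell in 9 conditions. With LPS its replicates were -0.62, -0.30 and -0.23 at 1 h, -0.29, -0.34 and -0.41 at 2 h, and -0.72, -0.65 and -0.31 at 4 h. All 9 were below 0. With LPS+IFG at 4 h they were -0.79, -1.02 and -0.80, lower than all 3 of LPS alone, but the difference of -0.31 was not called (limma adjusted p = 0.413).

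The 4 h means of Neu1 were -0.56 ± 0.22 with LPS (adjusted p = 5.56e-05), -0.46 ± 0.15 with IFG (adjusted p = 0.00189), -0.87 ± 0.13 with LPS+IFG (adjusted p = 1.20e-08) and -0.70 ± 0.12 with LPS+2MA (adjusted p = 1.04e-06). With 2MA alone the mean was 0.10 ± 0.17. The 1 h call with LPS was lost without replicate 1 (-0.27, adjusted p = 0.527) or replicate 2 (-0.43, adjusted p = 0.0636), and that with LPS+IFG without replicate 1 (-0.19, adjusted p = 0.687) or replicate 2 (-0.39, adjusted p = 0.0841). The 2 h call with LPS was lost without any 1 replicate (-0.37 to -0.31), and that with LPS+2MA without replicate 2 (-0.36, adjusted p = 0.0546). In Cy3 alone the LPS calls at 1 h (-0.28, adjusted p = 0.135) and 2 h (-0.23, adjusted p = 0.179) were lost. The LPS+IFG value at 1 h was then 0.0020 (adjusted p = 0.995). From the second probe alone LPS was called at neither 1 h (adjusted p = 0.133) nor 2 h (adjusted p = 0.0917).

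Gla, which encodes alpha-galactosidase A, the enzyme missing in Fabry disease, had the widest spread. With LPS+IFG at 4 h its replicates were 1.64, 1.15 and -0.46, and with LPS 0.81, 0.86 and -0.42. In both treatments sets 1 and 2 stood high and set 3 below 0. The LPS+IFG mean of 0.78 ± 1.10 was called (adjusted p = 0.00624), and the call was lost without replicate 1 (0.35, adjusted p = 0.399) or replicate 2 (0.59, adjusted p = 0.112). With IFG the 4 h replicates were -0.55, -0.48 and -0.65, all below 0, but the mean of -0.56 ± 0.09 was not called (adjusted p = 0.121), since the fit shares 1 variance over all conditions of a gene; with the set as a block it was called (adjusted p = 0.00195).

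Idua, the iduronidase of heparan and dermatan sulfate breakdown, was lower with LPS+2MA at 2 h (-0.41 ± 0.24, adjusted p = 0.0392) and LPS+IFG at 4 h (-0.41 ± 0.33, adjusted p = 0.0221). The first was not called without replicate 1 (-0.29, adjusted p = 0.299) or replicate 3 (-0.42, adjusted p = 0.125), nor the second without replicate 1 (-0.37, adjusted p = 0.141) or replicate 3 (-0.28, adjusted p = 0.280). In Cy3 alone neither was called (-0.39, adjusted p = 0.279, and -0.27, adjusted p = 0.412). Naglu, a further heparan sulfate enzyme, was called only with LPS+2MA at 4 h (-0.22 ± 0.20, adjusted p = 0.0428), and not without replicate 2 (adjusted p = 0.133) or replicate 3 (adjusted p = 0.476). With treated RNA in Cy3 alone its value turned to 0.060 (adjusted p = 0.716). The remaining 5 glycosidases were called nowhere without the block.

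**Figure D3:**
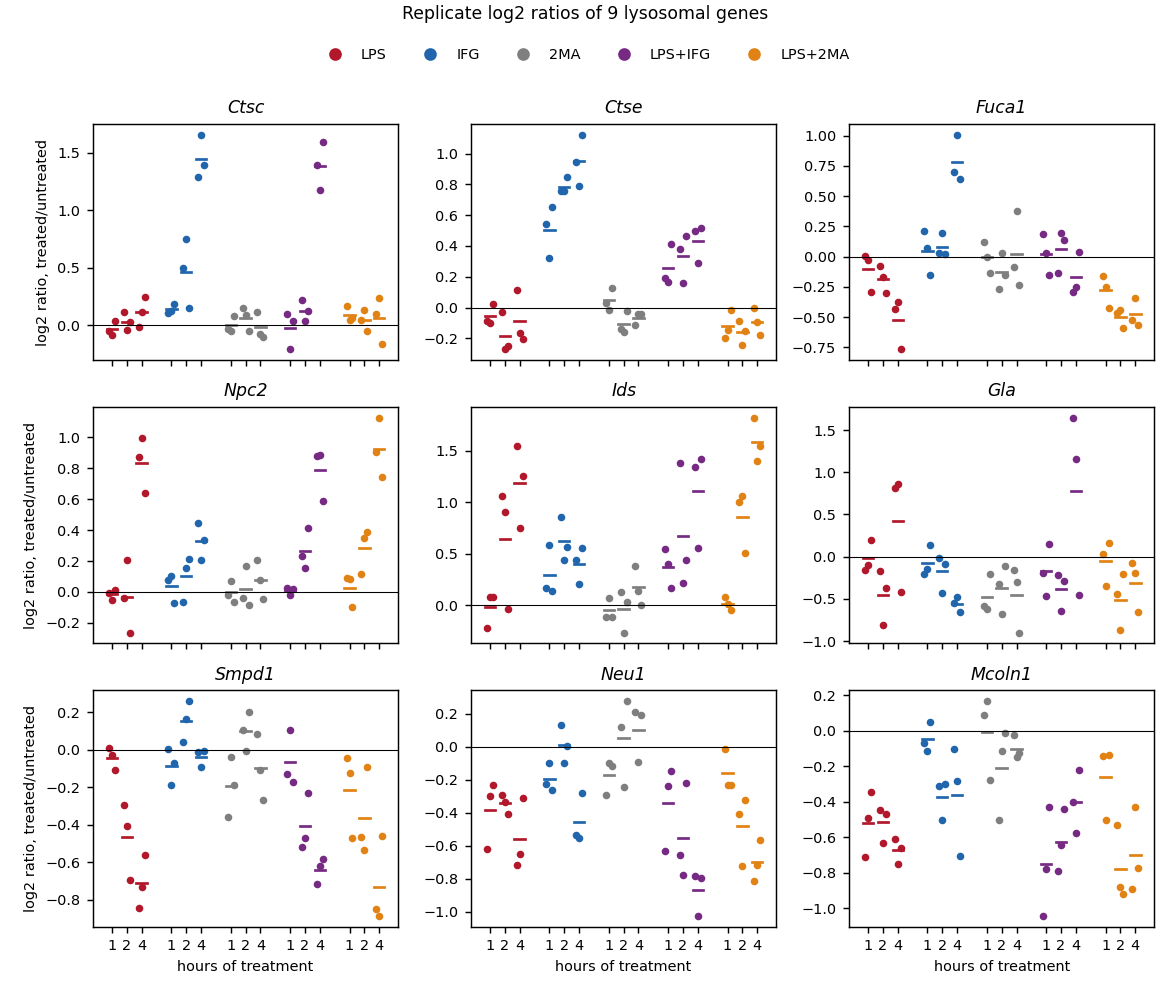
Log2 ratios of treated over untreated RNA of 9 lysosomal genes, 1 point per replicate and a bar at the mean of each condition, by treatment (colour) and hours. Ctsc and Ctse rise with IFG and LPS+IFG, Npc2 at 4 h with the 3 LPS-containing treatments, and Smpd1 falls with the latter; in Gla at 4 h of LPS and LPS+IFG 2 replicates lie above 0 and 1 below.

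Among the sulfatases, Ids had the largest values and the least agreement between probes. It encodes iduronate 2-sulfatase, the enzyme missing in Hunter disease. Its replicates at 4 h were 1.55, 0.75 and 1.26 with LPS, 1.34, 0.56 and 1.42 for LPS+IFG, and 1.82, 1.40 and 1.55 for LPS+2MA. All 9 were above 0. The means were 1.19 ± 0.40 (adjusted p = 1.17e-06), 1.11 ± 0.48 (adjusted p = 2.84e-06) and 1.59 ± 0.21 (adjusted p = 2.01e-09).

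These means average a pair of probes that moved differently. At 4 h of LPS, LPS+IFG and LPS+2MA the second probe stood at 2.44, 2.31 and 3.23, and the first at -0.06, -0.10 and -0.05. The second probe accounts for every call of Ids: in 7 conditions 1 probe was called and in none were both. What the second probe detects was not tested. With IFG the gene mean was called at 2 h (0.62 ± 0.22, adjusted p = 0.0386) and not at 4 h (0.40 ± 0.18, adjusted p = 0.159). The 2 h calls of Ids were lost with IFG without any 1 replicate (0.50 to 0.71), with LPS without replicate 1 (0.43, adjusted p = 0.216) or replicate 2 (0.51, adjusted p = 0.126), and with LPS+IFG without replicate 1 (0.33, adjusted p = 0.351).

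**Figure D4:**
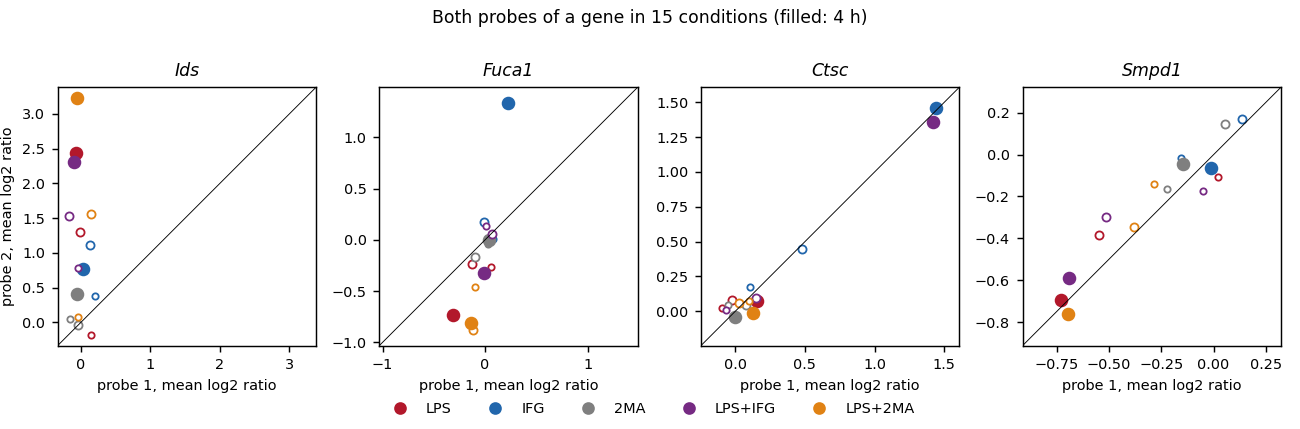
Mean log2 ratios from the first probe (horizontal) and the second probe (vertical) of Ids, Fuca1, Ctsc and Smpd1 in the 15 conditions, coloured by treatment, with 4 h filled; the line marks equal values. Points of Ctsc and Smpd1 lie near the line, those of Ids spread up to 3.23 along the second probe alone, and 1 point of Fuca1, IFG at 4 h, stands at 0.23 and 1.34.

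Arsa, the arylsulfatase that degrades sulfatide, was lower at 4 h. Its replicates were -0.34, -0.32 and -0.33 with LPS, -0.48, -0.16 and -0.32 in the IFG combination and -0.61, -0.54 and -0.35 in the 2MA combination. All 9 replicates were below 0. The means were -0.33 (adjusted p = 0.00013), -0.32 (adjusted p = 0.000176) and -0.50 (adjusted p = 7.73e-08), and IFG alone gave -0.11 ± 0.16. With treated RNA in Cy3 alone the LPS value was -0.24 and was not called (adjusted p = 0.0621).

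Of the lipid-handling genes, Npc2 rose and Smpd1 fell at 4 h of each treatment that held LPS. Npc2 encodes the soluble protein that carries cholesterol out of the lysosome together with the membrane protein Npc1. Its 4 h replicates were 0.87, 1.00 and 0.64 with LPS, 0.88, 0.89 and 0.59 for LPS+IFG, and 0.91, 1.13 and 0.74 for LPS+2MA. All 9 were above the 3 of IFG (0.45, 0.21 and 0.34). The means were 0.84 ± 0.18 (adjusted p = 3.82e-10), 0.79 ± 0.17 (adjusted p = 1.07e-09), 0.92 ± 0.19 (adjusted p = 2.30e-11) and, with IFG, 0.33 ± 0.12 (adjusted p = 0.00603).

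At 1 h the means of Npc2 lay between -0.02 and 0.04 in all treatments. At 2 h it was called with LPS+IFG (0.27 ± 0.13) and LPS+2MA (0.28 ± 0.15) and not with LPS (-0.03 ± 0.24). These 2 h calls were lost without replicate 1 (0.28, adjusted p = 0.0712) or replicate 3 (0.19, adjusted p = 0.256) of LPS+IFG, and without replicate 2 (0.25, adjusted p = 0.139) or replicate 3 (0.23, adjusted p = 0.161) of LPS+2MA. From either probe alone they were lost as well, with LPS+IFG (adjusted p = 0.0633 and 0.212) and LPS+2MA (adjusted p = 0.054 and 0.176). In Cy5 alone neither was called (adjusted p = 0.133 and 0.0551). Without replicate 1 the 4 h value with IFG was 0.27 and not called (adjusted p = 0.114). In Cy3 alone that value was 0.23 (adjusted p = 0.149). Its partner Npc1 was called once, lower with LPS+IFG at 2 h (-0.25 ± 0.12, adjusted p = 0.0293), where its probes differed by 0.59 and the second stood at 0.05. That call was lost without replicate 2 (-0.20, adjusted p = 0.172) or replicate 3 (-0.22, adjusted p = 0.165).

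Smpd1 encodes acid sphingomyelinase, which makes ceramide from sphingomyelin. With LPS its replicates were -0.29, -0.41 and -0.70 at 2 h and -0.84, -0.73 and -0.56 at 4 h. With IFG at 4 h they were -0.01, -0.09 and -0.01. The LPS means were -0.47 ± 0.21 (adjusted p = 0.000326) and -0.71 ± 0.14 (adjusted p = 1.06e-07), and the IFG mean was -0.04 ± 0.05. LPS+IFG and LPS+2MA gave -0.64 ± 0.07 and -0.73 ± 0.24 at 4 h, and both probes were called in all 6 conditions in which the gene was. The 2 h value with LPS+2MA (-0.36 ± 0.24) was not called without replicate 1 (-0.31, adjusted p = 0.0653) or replicate 2 (-0.28, adjusted p = 0.127).

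Asah1, the acid ceramidase that acts on ceramide next, was lower at 4 h with LPS (-0.33 ± 0.12, adjusted p = 0.00551) and LPS+2MA (-0.38 ± 0.03, adjusted p = 0.00115), and by less with LPS+IFG (-0.23 ± 0.18). The LPS call was lost without replicate 2 (-0.26, adjusted p = 0.104), and the LPS+IFG call without replicate 2 (-0.14, adjusted p = 0.408) or replicate 3 (-0.24, adjusted p = 0.123). With treated RNA in Cy3 alone none of the 3 was called: LPS gave -0.18 (adjusted p = 0.309), LPS+2MA -0.31 (adjusted p = 0.0532) and LPS+IFG -0.13 (adjusted p = 0.445). Psap, the precursor of the saposins that present lipids to these enzymes, was called once. With LPS+IFG at 4 h its replicates were 0.55, 0.53 and 0.94 (mean 0.68 ± 0.23, adjusted p = 3.42e-05), all above those of IFG (0.29, 0.38 and 0.40) and of LPS (-0.18, -0.01 and -0.31). The difference from IFG, 0.32, was not called (adjusted p = 0.341).

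Among the membrane proteins, Mcoln1 was lower in 9 conditions. It encodes mucolipin 1, the calcium-releasing channel of the lysosomal membrane. With LPS its replicates were -0.71, -0.49 and -0.35 at 1 h, -0.45, -0.63 and -0.47 at 2 h, and -0.61, -0.75 and -0.66 at 4 h. All 9 were below 0. The means were -0.52 ± 0.18 (adjusted p = 0.00237), -0.52 ± 0.10 (adjusted p = 0.000988) and -0.67 ± 0.07 (adjusted p = 1.08e-05). Mcoln1 and Neu1 were the 2 members called at 1 h of LPS. With treated RNA in Cy3 alone neither was called there, at -0.10 (adjusted p = 0.776) for Mcoln1 and -0.28 (adjusted p = 0.135) for Neu1.

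With LPS+IFG Mcoln1 stood at -0.75 ± 0.31 at 1 h and -0.40 ± 0.18 at 4 h. Its value depended on the dye: at 4 h of LPS Cy5-labelled treated RNA gave -1.16 and Cy3-labelled -0.18 (adjusted p = 0.363). At 4 h of IFG these were -0.76 and 0.03, the latter of opposite sign, and at 4 h of LPS+IFG -0.77 and -0.03 (adjusted p = 0.901). In both orientations it was called with LPS+IFG at 1 and 2 h and with LPS+2MA at 2 h. Without replicate 1 the LPS value at 1 h was -0.42 (adjusted p = 0.121), without replicate 3 the IFG value at 4 h was -0.19 (adjusted p = 0.530) and without replicate 2 it was -0.40 (adjusted p = 0.0677), and without replicate 2 the LPS+IFG value at 4 h was -0.31 (adjusted p = 0.0909).

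Lamp2, a major glycoprotein of the lysosomal membrane and receptor of chaperone-mediated autophagy, rose at 4 h. Its replicates were 0.74, 0.56 and 0.38 for LPS+IFG, 0.53, 0.65 and 0.20 for LPS+2MA, and 0.52, 0.49 and 0.11 for LPS. In each, set 3 was the lowest. The means were 0.56 ± 0.18 (adjusted p = 0.00031), 0.46 ± 0.23 (adjusted p = 0.00252) and 0.37 ± 0.23 (adjusted p = 0.0176). The LPS call was lost without replicate 1 (0.30, adjusted p = 0.180) or replicate 2 (0.32, adjusted p = 0.143), and that of LPS+2MA without replicate 2 (0.37, adjusted p = 0.0637).

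Its relative Lamp1, whose promoter shown above holds 4 E-boxes, stayed between -0.17 and 0.20 over the 15 conditions and was called in none. Scarb2, the receptor that carries glucocerebrosidase to the lysosome, was called at 4 h with LPS+IFG (0.32 ± 0.23, adjusted p = 0.00931) and LPS+2MA (0.35 ± 0.23, adjusted p = 0.00459). The LPS+IFG call was lost without replicate 1 (0.25, adjusted p = 0.149) or replicate 2 (0.27, adjusted p = 0.103), and the LPS+2MA call without replicate 1 (0.24, adjusted p = 0.154). In Cy5 alone (adjusted p = 0.0538), in Cy3 alone (adjusted p = 0.116) and with scaling (adjusted p = 0.0758) the LPS+IFG call was lost too. The LPS+2MA call was lost in Cy3 alone (0.31, adjusted p = 0.0938).

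Set beside the E-box, the calls at 4 h fell as follows. Of 12 tested members with CACGTG in a promoter, none rose and 3 fell with LPS (Arsa, Lgmn and Mcoln1), and of 16 without it 4 rose (Ctss, Ids, Lamp2 and Npc2) and 3 fell (Fuca1, Neu1 and Smpd1). With LPS+IFG 1 of the 12 rose (Gla) and 2 fell, and 7 of the 16 rose and 3 fell. With IFG none of the 12 rose and 1 fell, and 4 of the 16 rose and 1 fell. With LPS+2MA none of the 12 rose and 4 fell, and 5 of the 16 rose and 3 fell. Of all features, 12.5% rose and 15.5% fell with LPS, 14.9% and 18.5% with LPS+IFG, 6.11% and 5.68% with IFG, and 14.7% and 18.1% with LPS+2MA. These counts are a description, since no test of the difference between the groups was run.

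IFG added to LPS separated a few members from LPS alone. LPS+IFG less LPS called no member at 1 h by limma's test, beside 0.966% of features (1 had an unadjusted p under 0.05), 1 at 2 h, Ctse at 0.52, beside 2.53%, and 4 at 4 h beside 3.86%. The 4 were higher in the combination: Ctsc by 1.28 ± 0.12 (SE, adjusted p = 2.19e-09), Psap by 0.84 ± 0.18 (adjusted p = 0.00197), Ctse by 0.52 ± 0.11 (adjusted p = 0.00146) and Lgmn by 0.46 ± 0.14 (adjusted p = 0.0474). With the set as a block Fuca1 was also called higher at 4 h (0.36, limma adjusted p = 0.0277) and Idua lower (-0.39, limma adjusted p = 0.0447). That fit called 8.26% of features.

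Ctsc passed this test in every alternative, whereas with the arrays scaled to equal spread Psap (0.69, adjusted p = 0.0615), Ctse (0.42, adjusted p = 0.199) and Lgmn (0.37, adjusted p = 0.447) did not. Lgmn was also lost when any 1 of the LPS replicates or replicate 1 or 2 of LPS+IFG was left out, with values from 0.31 to 0.50. Smpd1 (0.07 ± 0.13), Npc2 (-0.05 ± 0.12) and Ids (-0.08 ± 0.25) did not differ beyond their SE between LPS+IFG and LPS.

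LPS+2MA less LPS called no member at 1, 2 or 4 h by limma's test, beside 0.0776%, 0.0603% and 0.319% of features, and 0, 2 and 2 members had an unadjusted p under 0.05. At 4 h the differences ran from -0.73 ± 0.32 (SE, Gla) to 0.40 ± 0.25 (SE, Ids). With the set as a block Gla was called (adjusted p = 0.0367), beside 1.74% of features in that fit.

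IFG and LPS were also set against each other at 4 h, in comparisons added after the data were seen. IFG less LPS called 8 members beside 9.53% of features. Ctsc (1.33 ± 0.12, SE), Fuca1 (1.31 ± 0.14), Ctse (1.04 ± 0.11), Smpd1 (0.67 ± 0.13) and Asah1 (0.50 ± 0.13) were higher with IFG. Npc2 (-0.51 ± 0.12), Ids (-0.78 ± 0.25) and Gla (-0.98 ± 0.32) were higher with LPS, the last at an adjusted p of 0.048 that was lost when replicate 1 or 2 of LPS or any 1 of IFG was left out (-1.02 to -0.76). The call of Ids was lost when replicate 1 or 3 of LPS or any 1 of IFG was left out (-0.86 to -0.60), and that of Asah1 without LPS replicate 2 (0.43) or IFG replicate 1 (0.40). The count was 5 without replicate 1 of IFG. With the set as a block Psap (0.52, limma adjusted p = 0.0471) was also called higher with IFG and Ctsl (-0.55, limma adjusted p = 0.0096) lower. That fit called 16.9% of features.

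LPS+IFG less IFG called 6 members beside 10.6% of features. Fuca1 (-0.95 ± 0.14, SE, adjusted p = 5.88e-06), Smpd1 (-0.60 ± 0.13, adjusted p = 0.0015), Ctse (-0.52 ± 0.11, adjusted p = 0.000695) and Asah1 (-0.40 ± 0.13, adjusted p = 0.0408) were lower in the combination than with IFG alone. Gla (1.34 ± 0.32, adjusted p = 0.00388) and Npc2 (0.46 ± 0.12, adjusted p = 0.00888) were higher, and Ctsc was not called (-0.06 ± 0.12, adjusted p = 0.902). With complete values only, which leaves Fuca1 its first probe, its difference was -0.24 (adjusted p = 0.139). Without replicate 1 of LPS+IFG the Gla difference was 0.91 (adjusted p = 0.0986). The Npc2 call was lost without replicate 2 of IFG (0.39) or replicate 1 or 2 of LPS+IFG (0.41 in both), and that of Asah1 without replicate 1 or 2 of IFG or replicate 2 or 3 of LPS+IFG (-0.43 to -0.31). With the set as a block 10 members were called, beside 18.8% of features in that fit.

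**Figure D5:**
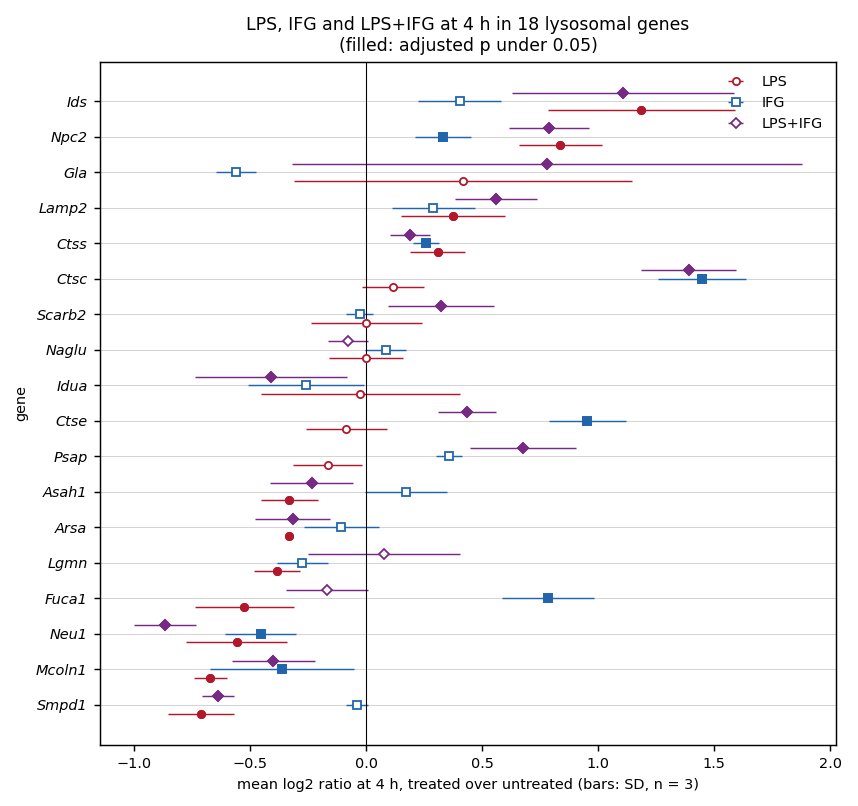
Mean log2 ratios at 4 h of LPS, IFG and LPS+IFG (bars: SD, n = 3) for the 18 lysosomal genes called at 4 h in any treatment, ordered by the LPS value; filled markers have an adjusted p under 0.05. For Ctsc the LPS+IFG marker lies beside IFG, for Smpd1 and Npc2 beside LPS, and for Ctse and Fuca1 between both.

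Each treatment was also compared between 4 h and 1 h. For 4 h less 1 h, LPS called 6 members (3 higher, 3 lower) beside 13.8% of features, IFG 3 (all higher) beside 4.45%, LPS+IFG 10 beside 18.0% and LPS+2MA 8 beside 17.9%. 2MA called none by limma's test beside 0.284%, and no member had an unadjusted p under 0.05 there. The LPS count was 3 without replicate 2 of 1 h, and the LPS+IFG count 5 without replicate 2 of 1 h, 5 without replicate 1 of 4 h and 6 without replicate 2 of 4 h.

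Other lysosomal genes, from lists drawn up together with the members, also moved in both directions. Of 22 tested further hydrolases, membrane proteins and cofactors, 7 rose and 5 fell at 4 h of LPS, beside 12.5% and 15.5% of features. With IFG 2 rose and 3 fell, beside 6.11% and 5.68%. With LPS+IFG 8 rose and 3 fell, beside 14.9% and 18.5%. With LPS+2MA 6 rose and 4 fell, beside 14.7% and 18.1%. Ctns fell at 4 h, to -0.65 ± 0.27 with LPS, -0.91 ± 0.36 with LPS+IFG and -0.73 ± 0.25 with LPS+2MA. Dnase2a stood there at -0.84 ± 0.07, -0.67 ± 0.24 and -0.87 ± 0.10. Cln3, the lysosomal membrane protein mutated in juvenile Batten disease, stood at 1.23 ± 0.26 with LPS, 1.92 ± 0.35 with LPS+IFG and 1.57 ± 0.39 with LPS+2MA at 4 h. Acp5, the tartrate-resistant acid phosphatase, stood at 0.91 ± 0.23 at 4 h of LPS, and with LPS+2MA at 1.70 ± 0.37, 1.95 ± 0.25 and 2.42 ± 0.37 at 1, 2 and 4 h.

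Of 10 tested subunits of the proton pump that acidifies the lysosome, 3 rose and none fell at 4 h of LPS, 1 rose and 1 fell with IFG, 2 rose and 1 fell with LPS+IFG, and 3 rose and 1 fell with LPS+2MA. Atp6v0a1 reached 1.06 ± 0.03 with LPS+IFG at 2 h. Of 4 tested genes of hydrolase sorting, 1 rose at 4 h of LPS, the mannose 6-phosphate receptor gene M6pr at 0.60 ± 0.11. Of 7 tested cathepsin inhibitors, 1 rose with LPS, none moved with IFG and 4 rose with LPS+IFG at 4 h, led by Cstb at 0.66 ± 0.13. These 4 h counts stand beside the same shares of all features as those given above for the further hydrolases.

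Of 3 tested transcription factors of the family that binds the E-box, Mitf rose at 4 h with LPS (1.03 ± 0.11), LPS+IFG (1.19 ± 0.21) and LPS+2MA (1.20 ± 0.15). At 2 h Mitf was called higher with LPS (1.19 ± 0.48), LPS+2MA (1.21 ± 0.27) and 2MA alone (0.88 ± 0.34, limma adjusted p = 0.0396). It was not called at 2 h of LPS+IFG (0.49 ± 0.45), nor with 2MA at 1 h (-0.15 ± 0.72) or 4 h (0.29 ± 0.86). Tfec rose as early as 1 h, at 0.62 ± 0.44 with LPS, 0.58 ± 0.15 with IFG and 1.60 ± 0.35 with LPS+IFG. With LPS+2MA Tfec was called at no time (0.39 ± 0.31, 0.14 ± 0.11 and 0.06 ± 0.08 at 1, 2 and 4 h). At 4 h of IFG it was not called either (0.34 ± 0.23, limma adjusted p = 0.0755). Tfeb was called once, lower with LPS+2MA at 4 h (-0.30 ± 0.23, limma adjusted p = 0.024), and stood at -0.16 ± 0.14 at 4 h of LPS, -0.06 ± 0.02 of IFG and -0.15 ± 0.23 of LPS+IFG.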

How the data were processed

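RNA of RAW 264.7 cells was measured on 90 2-colour arrays. Each deposited value is a log2 ratio between channels for 1 probe on 1 array; their scale was read from the values, their direction is unlabelled, and the authors' scanning, background correction and normalization are not given in the sources used here. The sign was turned on arrays with treated RNA in Cy3, and exact zeros (7.84% to 17.0% of an array) were taken as missing. Dye-swapped arrays of a set were averaged to 1 replicate. A probe needed 2 of 3 replicates with a value in each condition, which 13711 of 16281 met, and a gene's probes were averaged. A 1-way fit over 15 conditions was tested with limma 3.58.1 (R 4.3.3) and adjusted by Benjamini-Hochberg; arrays' number limits the precision. Tested on simulated data for LPS at 4 h (11600 features), the fit called 76 of 100 genes changed by 0.5, 100 of 100 changed by 1 and 11 of 11400 unchanged. The simulated noise was independent between replicates and most features were unchanged. In the data, sets correlated and 28.0% of features were called at 4 h of LPS. These rates may therefore not hold for the data.

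Members, lists (further hydrolases, proton pump, sorting, transcription factors, cathepsin inhibitors and cell type markers) and tests were chosen with earlier results of these data known. Members called with a mean of at least 1 in size were to be given by replicate, those of at least 0.5 by mean and SD, with the 3 highest and 3 lowest called differences of each combination from LPS at 4 h; other members and genes of the other lists were named for their role, probes or values after these were seen. The comparisons of IFG with LPS and with LPS+IFG were added after the data were seen. Deviations from condition means correlated above 0.1 within a set in 86 of 90 pairs of conditions, and in 18 of 18 of LPS with its combinations. The set number was therefore taken to pair samples at a given time. The fit without the block is the one reported, so its tests between treatments of a time leave this pairing unused. Spread shared by a set cancels in such a difference. For LPS+IFG less LPS at 4 h the block fit called 8.26% of features beside 3.86%, and for LPS+2MA less LPS 1.74% beside 0.319%. With the block, spread between sets of a time leaves the error, also in tests against untreated RNA. Its p-values there do not measure that spread. Alternatives were scaling, zeros kept, complete values, each dye orientation, the block, single probes and leaving out each replicate. Columns of other series numbered 0. Promoters came from RefSeq, GRCm38.p6; 1 of the motifs searched is not reported here.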

Additional observations from a re-analysis of the deposited data

Results flagged for a closer look

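By limma's test of the difference between 4 h and 1 h, with Benjamini-Hochberg adjustment, the effect of a treatment differed between these times for the following members, as the 4 h log2 ratio less the 1 h one. With LPS, Npc2 (0.85), Ids (1.21) and Ctss (0.34) were higher at 4 h, and Smpd1 (-0.67), Fuca1 (-0.42) and Asah1 (-0.45) were lower. With IFG, Ctsc (1.31), Ctse (0.45) and Fuca1 (0.74) were higher. When 1 replicate was left out, the LPS calls were lost for Fuca1 (replicate 1 or 2 of 1 h, 1 or 3 of 4 h; -0.46 to -0.30), Ctss (replicate 2 of 1 h, 1 of 4 h; 0.27 to 0.30) and Asah1 (replicate 2 or 3 of 1 h, 2 of 4 h; -0.42 to -0.37). The IFG call of Ctse was lost without replicate 2 of 1 h or 3 of 4 h (0.36 in both), with arrays scaled to equal spread (0.23, adjusted p = 0.583) and in either dye orientation alone (0.41 and 0.48). That of Fuca1 was lost with complete values only (0.15, adjusted p = 0.632) and in Cy3 only (0.69, adjusted p = 0.0836).

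With LPS+IFG, Ctsc (1.42), Gla (0.95), Npc2 (0.78), Psap (0.74), Ids (0.74), Lamp2 (0.52) and Scarb2 (0.40) were higher at 4 h, and Idua (-0.64), Smpd1 (-0.57) and Neu1 (-0.53) were lower. Calls were lost for Gla without replicate 1 or 2 of either time (0.51 to 0.94, the lowest without replicate 1 of 4 h), Ids without replicate 2 or 3 of 1 h or 1 or 3 of 4 h (0.58 to 0.75), Lamp2 without replicate 2 or 3 of 1 h or 1 or 2 of 4 h (0.44 to 0.52), Scarb2 without any 1 of 1 h or replicate 1 or 2 of 4 h (0.33 to 0.43), Idua without replicate 1 or 2 of 1 h or 1 or 3 of 4 h (-0.61 to -0.50) and Neu1 without replicate 3 of 1 h or 2 of 4 h (-0.45 to -0.44). With LPS+2MA, Ids (1.57), Npc2 (0.90), Lamp2 (0.54), Scarb2 (0.42) and Ctss (0.41) were higher, and Neu1 (-0.54), Smpd1 (-0.52) and Arsa (-0.49) were lower. Calls were lost for Lamp2 without replicate 3 of 1 h or 1 or 2 of 4 h (0.41 to 0.51), Scarb2 without any 1 of 1 h or replicate 1 or 2 of 4 h (0.31 to 0.45) and Neu1 without replicate 1 of 1 h (-0.47), and for Smpd1 with complete values only (-0.41, adjusted p = 0.112) and with scaling (-0.38, adjusted p = 0.0722). The labels do not say whether sets of 1 h and 4 h share a culture, and the test treats them as independent.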

How the results depend on the processing

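Of 28 counts of members called, all 28 stayed within 1.5 times with exact zeros kept and with complete values only. Counts that moved further follow, each with the share of all features called in the same fit. With treated RNA in Cy5 only, LPS gave 5 at 1 h (12.9%) and 9 at 2 h (21.7%), and IFG 5 at 2 h (11.5%). 2MA gave 5, 2 and 1 at 1, 2 and 4 h (11.7%, 7.61% and 7.32%). LPS+IFG gave 6 and 12 at 1 and 2 h (21.9% and 28.1%), LPS+2MA 2 at 1 h (10.1%) and IFG less LPS 5 (6.03%). With treated RNA in Cy3 only, LPS gave 0 and 2 at 1 and 2 h (7.48% and 13.8%) and 2MA 1 and 1 (4.64% and 10.6%). LPS+IFG gave 1 at 1 h (8.03%) and LPS+IFG less LPS 0 at 2 h (1.54%). For 4 h less 1 h, LPS, IFG and LPS+IFG gave 3, 1 and 6 (9.62%, 2.66% and 12.4%). With arrays scaled to equal spread, LPS+IFG gave 1 at 1 h (6.62%) and LPS+IFG less LPS 0 and 1 at 2 and 4 h (1.42% and 1.59%). For 4 h less 1 h, LPS+IFG and LPS+2MA gave 4 and 5 (10.2% and 12.6%). IFG less LPS gave 4 (4.99%) and LPS+IFG less IFG 3 (3.3%). With the set as a replicate block, LPS gave 8 at 2 h (25.4%), IFG 13 at 4 h (20.9%) and 2MA 1 at each time (5.28%, 4.04% and 6.29%). LPS+2MA gave 1 at 1 h (9.5%), LPS+2MA less LPS 1 at 4 h (1.74%) and LPS+IFG less IFG 10 (18.8%). The block ended none of 119 single calls, but it takes the spread between sets out of the error. In tests against untreated RNA or between times it is therefore no check of the calls against that spread. Leaving out 1 replicate gave 0 to 2 for LPS at 1 h, 2 to 5 at 2 h, 1 to 2 for IFG at 2 h, 0 to 1 for 2MA at 1 h, 1 to 2 for LPS+IFG at 1 h, 4 to 5 for LPS+2MA at 2 h, 3 to 6 and 5 to 9 for 4 h less 1 h of LPS and LPS+IFG, and 5 to 7 for IFG less LPS. The share of all features was not counted for these. Values that changed sign were those of the first Ids probe alone (-0.0095 and -0.064 for LPS at 2 and 4 h, -0.18 and -0.10 for LPS+IFG, -0.055 for LPS+2MA at 4 h), the second Npc1 probe (0.049, LPS+IFG at 2 h) and, in Cy3 only, Mcoln1 (0.033, IFG at 4 h), Neu1 (0.0020, LPS+IFG at 1 h) and Naglu (0.060, LPS+2MA at 4 h). Of 119 single calls, 35 were lost with scaling, 6 with zeros kept, 5 with complete values, 23 in Cy5 only and 39 in Cy3 only, beside the 3 there that changed sign; the cause was not tested. The deposited ratios hold no signal or background, so weak probes cannot be told from strong ones.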
